A study of Homo sapiens with 6 samples.

Results

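The CXCL12 signalling axis examined here has 3 genes: CXCL12, the chemokine also known as stromal cell-derived factor 1, and its 2 receptors, CXCR4 and ACKR3 (CXCR7 in older annotation). They were found by matching Ensembl gene IDs to symbols, and they are 3 of the 60107 gene IDs in the count table. CXCR4 was picked on the counts of these same 6 libraries, because they separate the groups, so its difference is given as a description with no test. CXCL12 and ACKR3 were taken for their roles, and all 3 genes passed the filter on low counts.

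H9, an established line of human embryonic stem cells, was differentiated towards nephron progenitor cells, the cells that give rise to the filtering units of the kidney, and RNA was sequenced from cells taken when day 9 ended. Of the 6 libraries, 3 came from cells in complete medium (with glutamine) and 3 from cells deprived of glutamine from day 0 (without glutamine). Both groups share the cell line, the protocol and the day, and no gene was altered in either. The column headings name days 0 and 9, whereas the labels place every sample at day 9. Each column was assigned through its sample's description, and every direction below rests on that assignment. The labels do not say whether replicates were separate cultures, so p-values measure only the spread between these samples.

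CXCR4 is a seven-transmembrane receptor that couples to inhibitory G proteins and steers cells up gradients of CXCL12. ACKR3 binds the same chemokine with high affinity, recruits arrestins rather than signalling through G proteins, and takes CXCL12 into the cell for breakdown, which shapes the gradient that CXCR4 reads. In the developing kidney CXCL12 is made by stromal cells and the axis is known for roles in vessel and glomerular development. CXCR4 is also widely used as a surface marker of definitive endoderm.

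The libraries held 78220507 to 84746566 counts. Replicate 1 with glutamine stood apart from its group: its mean Pearson's r of log2 CPM (counts scaled to a common library size) across genes was 0.976 with its own group and 0.9916 with the libraries without glutamine. Values without it are given beside the 3 genes and beside many of the named genes whose call turned on it. Replicate 1 with glutamine was singled out on these same counts, by its likeness to the other group. Calls without it are therefore descriptions and not independent tests. The fit without it called 41.3% of 23164 genes, against 0.00442% of 22613 with all 6 libraries. The 12 nephron progenitor markers were uneven between groups: the groups stayed apart for 3 with higher and 3 with lower levels in the absence of glutamine (25.0% each, against 17.3% and 16.9% of all tested genes). WT1 was at 225 to 390 CPM, SALL1 at 112 to 170 CPM and SIX2, which defines the self-renewing progenitor, at 6.57 to 34.8 CPM over the 6 libraries. HOXD11 was near 0 with glutamine, at 0.542, 0 and 0.0127 CPM, and at 3.22, 5.33 and 6.05 CPM without. For LHX1 the levels were 71.8, 4.51 and 4.66 CPM with and 137, 114 and 89.5 CPM without. GDNF was at 20.9, 9.46 and 8.45 CPM with and 33.3, 38.9 and 28.0 CPM without. The log2 fold changes of HOXD11, LHX1 and GDNF were 4.675, 2.07 and 1.37 (edgeR adjusted p 0.0679, 0.217 and 0.0762). Without replicate 1 with glutamine they were 9.26, 4.63 and 1.90 (edgeR adjusted p 2.27e-06, 1.93e-07 and 6.59e-06).

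By GENCODE 29 on GRCh38, the build named in the submitters' processing notes, CXCR4 (ENSG00000121966) lies on chromosome 2 at 136114349 to 136118165, minus strand. CXCL12 (ENSG00000107562) lies on chromosome 10 at 44370165 to 44386493, minus strand, with 8 annotated transcripts. ACKR3 (ENSG00000144476) lies on chromosome 2 at 236567787 to 236582358, plus strand. All 3 are protein-coding, and in GENCODE 29 there are 0 annotated genes that overlap any of them on either strand. The annotation and strand setting behind the deposited counts are not given, so sharing with a neighbour under them was not checked. Counts are given per gene and do not separate transcripts.

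The 250 bases before the RefSeq gene starts (GRCh38.p14) of CXCR4 and CXCL12 are shown, 5′ to 3′ on the gene's strand. RefSeq entries matched 2 of the 3 members, and there was none for ACKR3. Capitals mark matches to any of 7 short motifs searched on both strands. CXCR4 has 3 such windows, of which the one farthest upstream is shown, chr2:136118150-136118399, and for CXCL12 the window is chr10:44385098-44385347. The CXCL12 window lies inside the GENCODE span of the gene given above.
CXCR4: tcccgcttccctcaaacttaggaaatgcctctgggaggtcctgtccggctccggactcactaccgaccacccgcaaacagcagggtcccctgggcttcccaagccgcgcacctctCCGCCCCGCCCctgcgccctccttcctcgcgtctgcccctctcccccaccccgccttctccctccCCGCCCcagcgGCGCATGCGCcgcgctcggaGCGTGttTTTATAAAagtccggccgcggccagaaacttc
CXCL12: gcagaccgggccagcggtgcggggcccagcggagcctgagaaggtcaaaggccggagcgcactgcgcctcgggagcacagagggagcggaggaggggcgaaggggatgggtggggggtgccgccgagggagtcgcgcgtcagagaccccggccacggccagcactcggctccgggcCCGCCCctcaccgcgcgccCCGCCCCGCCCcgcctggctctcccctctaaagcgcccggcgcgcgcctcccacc
The CXCR4 window held 1 match to the core bound by the factor NRF1 (GCGCA and GCGC with 1 base between them), 59 bases before the start. It also held GC boxes (GGGCGG) 135, 130 and 70 bases before the start, and a TATA box (TATAAA) that matched on both strands in overlapping positions, 32 and 30 bases before it. A hypoxia element in its G form (GCGTG) lay 39 bases before the start. The CXCL12 window held GC boxes 74, 55 and 50 bases before the start and no match to the other 6 motifs. Neither window matched the A form of the hypoxia element (ACGTG), the AP-1 element (TGANTCA) or the core of the amino acid response element (TGATGNAA). Of 35116 such windows in the RefSeq table, 5.07% held the NRF1 core, 42.6% a GC box, 10.7% the TATA box, 32.2% GCGTG, 18.5% ACGTG, 6.57% the AP-1 element and 3.14% the amino acid response core. These matches describe letters only; binding was not measured.

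For CXCR4, the signalling receptor, replicates 1, 2 and 3 grown with glutamine gave 40.3, 46.6 and 46.6 CPM, and those grown without it gave 72.8, 86.1 and 80.7 CPM. Every library without glutamine was above every library with it, the lowest of the first being 1.56 times the highest of the second. The group with glutamine averaged 44.5 ± 3.604 CPM and the other 79.9 ± 6.69 CPM (SD, n = 3), a 1.80-fold difference and a log2 fold change of 0.84 (SE 0.10). This is the pattern for which the gene was chosen, so nothing is tested by it. In the same comparison 17.3% of the 22613 tested genes were higher without overlap between groups, and 7.41% had a larger log2 fold change than CXCR4. Its coefficient of variation was 8.10% with glutamine and 8.38% without. This spread was not small for its level: of 5165 genes within 1 log2 unit of its mean, 51.1% had a smaller SD of log2 CPM with glutamine and 75.8% without. Leaving out replicate 1 with glutamine gave a log2 fold change of 0.78 (SE 0.08).

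For CXCL12, the ligand, the replicates in the same order gave 154, 84.2 and 78.2 CPM in the presence of glutamine and 186, 310 and 392 CPM in its absence. The groups did not overlap, but replicate 1 with glutamine came close to replicate 1 without, which was 1.21 times higher. The group with glutamine averaged 105 ± 42.0 CPM and the other 296 ± 104 CPM (SD, n = 3), a 2.81-fold difference. The log2 fold change was 1.49 (SE 0.34, 95% interval 0.68 to 2.30). It missed the threshold of 0.05 in edgeR's quasi-likelihood test (Benjamini-Hochberg adjusted p 0.0721), by which 1 gene, or 0.00442%, was called higher. Across 16 alternatives the adjusted p ran from 4.11e-05 to 0.259. An exact two-sided permutation test gave p = 0.1, the smallest that 3 against 3 allows.

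Without replicate 1 with glutamine, CXCL12 rose by 1.87 on the log2 scale (SE 0.25, edgeR adjusted p 0.000303), in a fit that called 41.3% of 23164 genes, 22.3% higher and 19.0% lower. DESeq2 on all 6 libraries also called it, at a log2 fold change of 1.499 and an adjusted p of 4.11e-05, where 7.54% of 21759 genes were called higher and 6.44% lower. The spread of CXCL12 was wide in both groups. Its SD of log2 CPM without glutamine was 0.55, and 99.9% of the 2661 genes within 1 log2 unit of its mean level had a smaller one. With glutamine the SD was 0.53, above that of 97.7% of the same genes.

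For ACKR3, the scavenging receptor, the values were 21.2, 7.21 and 6.39 CPM in the presence of glutamine and 21.2, 22.2 and 26.2 CPM in its absence. Replicate 1 with glutamine lay among the libraries without it, so the groups overlapped. The group with glutamine averaged 11.6 ± 8.34 CPM and the other 23.2 ± 2.64 CPM (SD, n = 3). The log2 fold change of 0.99 (SE 0.44) was not called by edgeR's quasi-likelihood test (adjusted p 0.178), and its 95% interval ran from -0.03 to 2.02. The exact two-sided permutation test gave p = 0.2. Without replicate 1 with glutamine ACKR3 rose by 1.77 on the log2 scale (SE 0.12, edgeR adjusted p 3.83e-06). That fit called 41.3% of 23164 genes, 22.3% higher and 19.0% lower. The call of ACKR3 therefore turns on 1 library, which was singled out on these same counts.

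**Figure D1:**
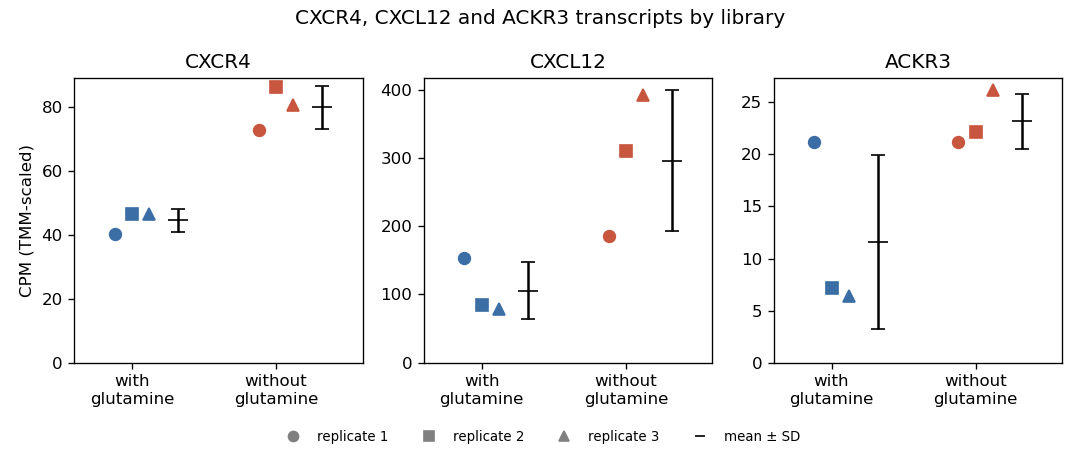
Points give CPM of CXCR4, CXCL12 and ACKR3 in each library (circle, square and triangle for replicates 1, 2 and 3), with glutamine in blue and without in red; black bars are mean ± SD of 3 libraries and each axis starts at 0. CXCR4 is separate between groups, CXCL12 is spread more widely in both, and the ACKR3 value of replicate 1 with glutamine, 21.2 CPM, lies level with the libraries without glutamine.

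The 3 genes thus differed in how the library that stood apart behaved. Against the mean of replicates 2 and 3 with glutamine, replicate 1 with glutamine had 0.87 times their CXCR4, 1.89 times their CXCL12 and 3.12 times their ACKR3. The libraries without glutamine had on average 1.72, 3.65 and 3.41 times that same mean. In CXCR4, replicate 1 was the lowest of all 6 libraries. For ACKR3 it had reached the level of the libraries without glutamine, which were on average 1.09 times higher. For CXCL12 it was intermediate, and the libraries without glutamine were on average 1.93 times higher than it.

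**Figure D2:**
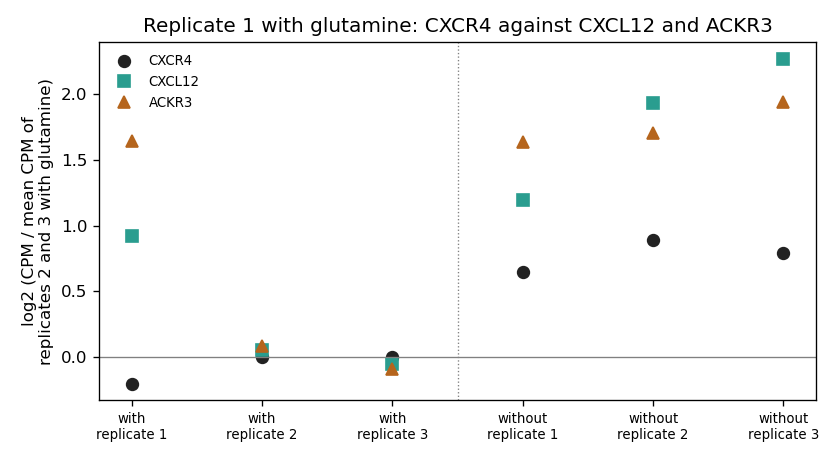
The vertical axis is the log2 ratio of each library's CPM to the mean CPM of replicates 2 and 3 with glutamine, for CXCR4 (black circles), CXCL12 (green squares) and ACKR3 (brown triangles); the dotted line divides the groups. In replicate 1 with glutamine ACKR3 and CXCL12 lie above 0, at 3.12 and 1.89 times the reference, while CXCR4 lies below it at 0.87 times.

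Per kilobase of exon, as CPM divided by exon length, which allows levels of different genes to be compared, CXCR4 was at 20.0 ± 1.62, CXCL12 at 17.3 ± 6.91 and ACKR3 at 5.14 ± 3.70 with glutamine (SD, n = 3). Without glutamine CXCL12 was at 48.7 ± 17.0, CXCR4 at 35.9 ± 3.01 and ACKR3 at 10.3 ± 1.17. ACKR3 was the lowest of the 3 in each of the 6 libraries. The ranges of CXCL12 and CXCR4 overlapped in both groups. Their order also depended on the length used: with the longest transcript in place of all exons, CXCL12 with glutamine was at 29.8 and CXCR4 at 23.5.

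Ratios within a library do not depend on scaling between libraries. The ratio of CXCL12 to CXCR4 per kilobase was 1.40, 0.66 and 0.61 with glutamine and 0.94, 1.32 and 1.78 without, and the groups overlapped. CXCL12 to ACKR3 stood at 2.69, 4.34 and 4.55 with glutamine and 3.27, 5.20 and 5.57 without. The means of 3.86 ± 1.02 and 4.68 ± 1.23 (SD, n = 3) did not differ detectably (exact two-sided permutation test, p = 0.5). CXCR4 to ACKR3 was 1.93, 6.56 and 7.40 with glutamine and 3.49, 3.94 and 3.13 without. Replicates 2 and 3 with glutamine had the highest signalling receptor per scavenging receptor transcript, and replicate 1 of the same group the lowest.

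**Figure D3:**
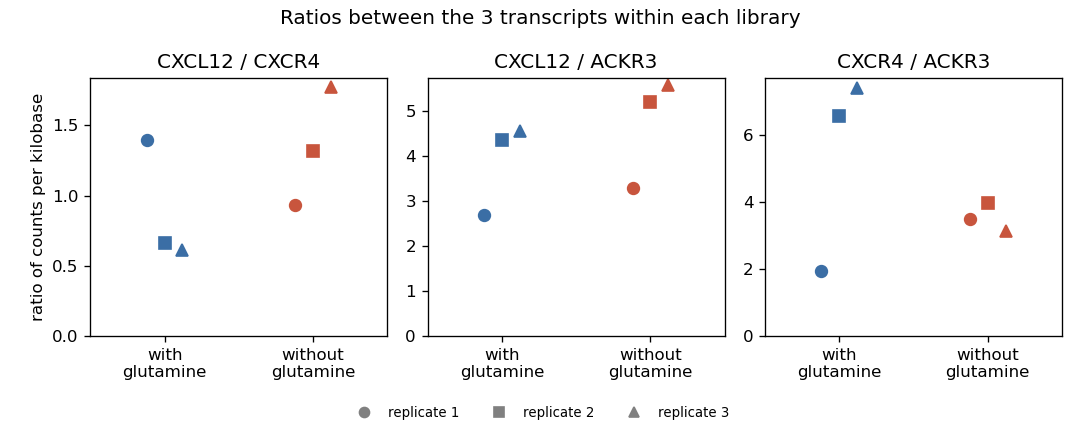
Each panel plots the ratio of counts per kilobase of one gene to another in each library, with glutamine in blue and without in red, symbols as replicate numbers and axes from 0. The CXCR4 to ACKR3 ratio runs from 1.93 to 7.40 with glutamine and stays between 3.13 and 3.94 without.

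The rest of the chemokine system was low. Of 22 other chemokine receptors, all 22 stayed under 1 CPM per kilobase in every library, and the highest value was 0.846 for CCR10. All 43 other chemokines did so too, with the highest value 0.838 for CCL2. Only 7 of the receptors and 11 of the chemokines passed the filter on low counts. No CPM of CXCL10, an interferon-induced chemokine, was above 0.802: it was at 0.209, 0.640 and 0.802 with glutamine and at 0.0349, 0.0638 and 0.0891 without, with no overlap. The log2 fold change of CXCL10 was -3.12 (edgeR adjusted p 0.0703), and -3.51 (5.46e-05) without replicate 1 with glutamine.

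Genes around the axis were examined in 8 lists holding 176 different genes, of which 120 were tested. EdgeR called 0 of the 120 at an adjusted p under 0.05, and limma-voom called 0, against 0.00442% and 0% of all tested genes. At an adjusted p under 0.1, which 14.5% of all tested genes passed (7.3% higher and 7.23% lower), 12 were higher and 13 lower without glutamine. At an unadjusted p under 0.05 these counts were 20 and 24, where 14.7% and 15% of all tested genes passed. DESeq2 called 11 higher and 13 lower, where it called 7.54% and 6.44% of all genes. Without replicate 1 with glutamine, edgeR called 28 higher (23.3%) and 31 lower (25.8%), against 22.3% and 19.0% of all genes. Groups stayed apart in 25 higher members (20.8%) and 19 lower ones (15.8%), near the 17.3% and 16.9%, or 34.2% in either direction, of all tested genes. The median log2 fold change over the 120 was 0.02, against 0.0012 over all tested genes. The shares called were mostly above those of all genes, more so for lower members, but several were near them. Without replicate 1 with glutamine 25.8% were called lower, against 19.0%, and 23.3% higher, against 22.3%. By groups staying apart, the share of lower members was below that of all genes, at 15.8% against 16.9%. The lists were chosen with earlier results of these data known, so no result about the lists is read from these shares. No list was tested as a set, and the values below only describe single genes. In each list the named genes are those with the largest differences among members whose groups did not overlap.

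Among other ligands of the 2 receptors, ADM encodes adrenomedullin, a vasoactive peptide that ACKR3 can also bind and clear. It was at 3.31, 3.12 and 3.42 CPM with glutamine and at 8.29, 12.8 and 10.4 CPM without. The groups were well apart and replicate 1 with glutamine lay with its own group, as it did for CXCR4. The log2 fold change was 1.67, with an edgeR adjusted p of 0.0679, and 1.68 (8.5e-05) without that library. HMGB1, a nuclear protein that can form a complex with CXCL12 outside the cell, was at 193 to 225 CPM with glutamine and 268 to 303 CPM without, a log2 fold change of 0.46 (edgeR adjusted p 0.0679), and of 0.51 (0.000705) without replicate 1 with glutamine. This list had 5 tested ligands, of which 2 were higher and 0 lower without overlap (40% and 0%, against 17.3% and 16.9% of all tested genes). The remaining 3 overlapped between groups, and the count of MIF is uncertain because an antisense gene overlaps it. PDYN overlapped only through replicate 1 with glutamine. It was at 1.87, 0.115 and 0.191 CPM with glutamine and 1.43, 1.62 and 1.375 CPM without. The log2 fold change of PDYN was 1.003 (edgeR adjusted p 0.405), and 3.257 (2.16e-05) without that library.

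The signalling machinery at the receptor comprised 25 tested G protein subunits, receptor kinases, arrestins and RGS proteins. Of these, 7 were higher and 3 lower without overlap (28.0% and 12.0%, against 17.3% and 16.9% of all tested genes). Their median log2 fold change was 0.02. RGS4 and RGS5 speed up the switching off of G protein signals. RGS4 was at 79.4, 34.2 and 32.1 CPM with glutamine and 114, 115 and 112 CPM without. RGS5 (ENSG00000143248) was at 8.94, 4.87 and 6.24 CPM with and 12.7, 14.97 and 15.7 CPM without. GNAO1, an inhibitory G protein alpha subunit, was at 7.92, 2.06 and 1.77 CPM with and 10.7, 11.7 and 15.8 CPM without. In all 3 genes replicate 1 with glutamine was the highest of its group. Their log2 fold changes of 1.23, 1.11 and 1.70 had edgeR adjusted p of 0.0827, 0.0687 and 0.102. Without that library all 3 were called, at 1.78 (edgeR adjusted p 1.81e-07) for RGS4, 1.38 (4.7e-05) for RGS5 and 2.73 (5.72e-06) for GNAO1. The inhibitory subunits GNAI2 and GNAI3, through which CXCR4 signals, had log2 fold changes of 0.11 and 0.02.

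Of 33 tested migration effectors, 8 were higher and 11 lower without overlap (24.2% and 33.3%, against 17.3% and 16.9% of all tested genes). The median log2 fold change was -0.07. By a different measure, edgeR's calls without replicate 1 with glutamine, 6 of the 33 were higher and 14 lower, or 18.2% and 42.4%, where 22.3% and 19.0% of all genes were called. The largest differences were lower values without glutamine. PREX1, an exchange factor that links G protein beta-gamma subunits to RAC, was at 40.2, 79.9 and 85.5 CPM with glutamine and 39.5, 28.9 and 28.9 CPM without. PLCB4, a phospholipase downstream of G proteins, was at 49.7, 132 and 128 CPM with and 43.5, 38.6 and 39.4 CPM without. PIK3R1, a regulatory subunit of phosphoinositide 3-kinase, was at 92.2, 224 and 223 CPM with and 80.4, 75.4 and 87.0 CPM without. Their edgeR adjusted p were 0.0806, 0.0762 and 0.0827, and in each gene replicate 1 with glutamine lay next to the libraries without. Leaving it out gave calls for all 3, at log2 fold changes of -1.34 for PREX1 (edgeR adjusted p 3.37e-05), -1.68 for PLCB4 (3.06e-07) and -1.46 for PIK3R1 (6.77e-07).

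Of 12 receptor sorting and partner genes, 1 was higher and 1 lower without overlap (8.33% each, against 17.3% and 16.9% of all tested genes). EdgeR called, without replicate 1 with glutamine, 2 higher and 3 lower, or 16.7% and 25.0%, where 22.3% and 19.0% of all genes were called. LASP1, an actin-binding protein that binds the CXCR4 tail, was at 106 to 149 CPM with glutamine and 158 to 192 CPM without, a log2 fold change of 0.52 (edgeR adjusted p 0.081), and of 0.67 (0.000407) without that library. DTX3L, a ubiquitin ligase, overlapped between groups at a log2 fold change of -0.67 (edgeR adjusted p 0.111), and fell by 0.85 (0.00124) without that library. ITCH, the ubiquitin ligase that sends CXCR4 to the lysosome, was at 104 to 122 CPM with glutamine and 99.0 to 104 CPM without, a log2 fold change of -0.18 (edgeR adjusted p 0.176), and of -0.24 (0.0134) without it.

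Among genes that cleave or hold CXCL12, 3 of 14 tested were higher and 0 lower without overlap. These are 21.4% and 0%, against 17.3% and 16.9% of all tested genes, and the median log2 fold change was 0.14. DPP4, the surface peptidase that inactivates CXCL12 by removing its first residues, was at 7.37, 1.69 and 2.07 CPM with glutamine and 15.4, 14.1 and 13.3 CPM without. SDC2, a heparan sulfate carrier, was at 136, 107 and 116 CPM with and 165, 204 and 201 CPM without. MMP14, a membrane metalloprotease, was at 142 to 175 CPM with and 206 to 216 CPM without. Their log2 fold changes of 1.94, 0.67 and 0.43 had edgeR adjusted p of 0.0799, 0.0679 and 0.0695. Without replicate 1 with glutamine all 3 were called, at 2.92 (edgeR adjusted p 3.74e-07) for DPP4, 0.77 (0.00024) for SDC2 and 0.52 (0.000255) for MMP14. GPC3, the most abundant glypican of the list, overlapped between groups at a log2 fold change of 0.61 (edgeR adjusted p 0.177). Without that library it rose by 0.95 (edgeR adjusted p 0.000913).

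Among 13 tested regulators of the receptor genes, 3 were higher and 0 lower without overlap (23.1% and 0%, against 17.3% and 16.9% of all tested genes). HIC1, a repressor known to act on the ACKR3 promoter, was at 5.63, 4.07 and 3.18 CPM with glutamine and 9.36, 10.4 and 10.6 CPM without, a log2 fold change of 1.24 (edgeR adjusted p 0.0679), and of 1.49 (2.13e-05) without replicate 1 with glutamine. VHL and NFKB1 had log2 fold changes of 0.17 and 0.21 (edgeR adjusted p 0.145 and 0.142). NRF1 itself, whose core motif the CXCR4 window holds, was at 29.8 to 32.7 CPM with glutamine and 32.6 to 34.5 CPM without, and the groups overlapped. Of the hypoxia factors, HIF1A was at 202 to 232 CPM with and 214 to 241 CPM without. EPAS1 was at 6.80, 0.346 and 0.267 CPM with and 7.21, 7.53 and 5.97 CPM without, so that, as for ACKR3, replicate 1 with glutamine lay among the libraries without. Its log2 fold change was 1.47 (edgeR adjusted p 0.322), and 4.49 (4.78e-07) without that library.

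**Figure D4:**
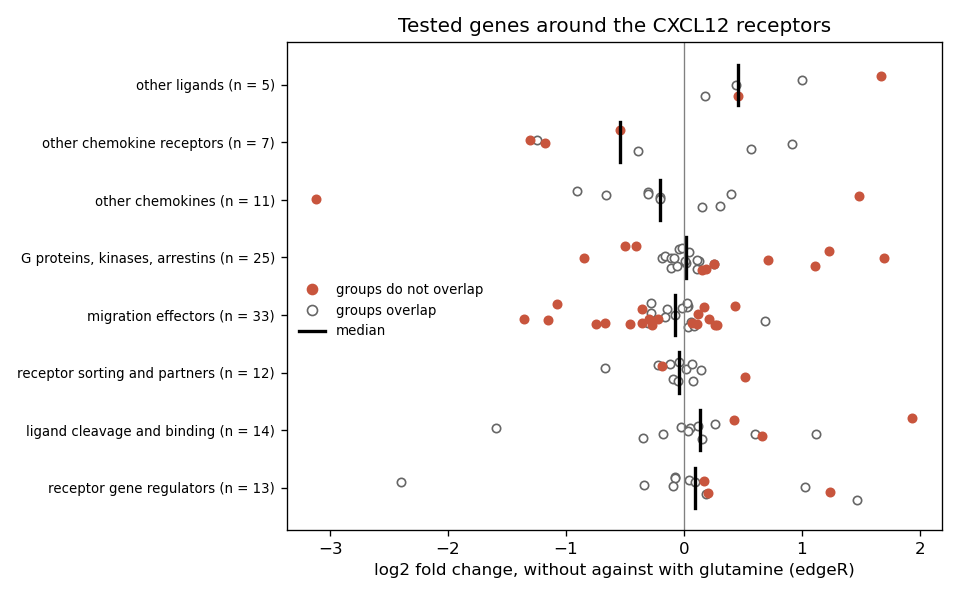
Points are the log2 fold changes, without against with glutamine, of the tested genes of the 8 lists; filled points are genes whose groups do not overlap and black lines are list medians. Most medians lie near 0, such as 0.02 for the G protein list and -0.07 for the migration effectors, while single genes such as ADM (1.67), DPP4 (1.94) and CXCL10 (-3.12) lie far from it.

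These are bulk libraries, in which fewer cells of a type and less RNA per cell cannot be told apart, so marker levels of other cell types were set beside the 3 genes. The defining endoderm markers were near 0, and all 7 had a mean under 1 CPM in both groups. FOXA2 was at 0 in every library with glutamine and at 0.0349 to 0.0509 CPM without. The summed level of the list was 0.863 to 2.54 CPM with glutamine and 0.802 to 1.12 CPM without. The ranges of these sums overlapped. Of 3 tested, 1 was higher and 2 lower without overlap (33.3% and 66.7%, against 17.3% and 16.9% of all tested genes). At low counts, HHEX, SOX17 and CER1 had log2 fold changes of -2.205, -1.60 and 2.29 (edgeR adjusted p 0.088, 0.0857 and 0.0827). Without replicate 1 with glutamine all 3 were called (edgeR adjusted p 7.92e-05, 0.000354 and 0.000351). The 10 blood markers summed to 4.83 to 13.9 CPM with glutamine and 3.72 to 4.56 CPM without.

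The 12 endothelial markers summed to 113 to 131 CPM with glutamine and 165 to 194 CPM without, without overlap. PLVAP and EMCN weigh heavily in the sums without glutamine, so the higher sums do not describe the other markers. Members of the list were split: 3 were higher and 5 lower without overlap (25.0% and 41.7%, against 17.3% and 16.9% of all tested genes). EMCN, an endothelial sialomucin, was at 14.6, 1.80 and 1.83 CPM with and 22.8, 42.5 and 53.7 CPM without. KDR, a receptor for vascular endothelial growth factor, was at 24.3, 82.3 and 69.8 CPM with and 13.5, 12.7 and 17.5 CPM without. PLVAP, a component of endothelial diaphragms, was at 51.1, 7.96 and 5.62 CPM with and 82.3, 87.7 and 80.5 CPM without. Their log2 fold changes of 2.70, -2.01 and 1.95 had edgeR adjusted p of 0.0948, 0.0695 and 0.148. With replicate 1 of the glutamine group left out all 3 were called, at 4.45 (edgeR adjusted p 1.43e-05) for EMCN, -2.38 (1.04e-06) for KDR and 3.62 (1.31e-07) for PLVAP. PECAM1 and CDH5, which define endothelium, were under 2 CPM in every library and lower without glutamine. None of the 12 markers was at 0 in every library, and the part of these cells in the result for CXCR4 was not tested.

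The 10 kidney stroma markers, of the cell type that makes CXCL12 in the kidney, summed, by replicate, to 1711, 1170 and 1250 CPM in the presence of glutamine and to 1659, 2126 and 2579 CPM in its absence. The 4 libraries with the highest sums were also the 4 with the highest CXCL12, replicate 1 with glutamine among them. COL3A1 weighs heavily in these sums, and single markers differed in this order. PDGFRA kept it, at 327, 201 and 213 CPM with glutamine and 238, 270 and 382 CPM without. PDGFRB did not, at 143, 173 and 174 CPM with and 135, 135 and 162 CPM without. COL3A1, a fibrillar collagen, was at 597, 150 and 188 CPM with and 699, 1078 and 1275 CPM without. TCF21, a stromal and podocyte transcription factor, was at 3.96, 0.64 and 0.39 CPM with and 7.17, 9.37 and 10.6 CPM without, but FOXD1, which defines cortical stroma, was lower without glutamine, at 0.78, 2.89 and 2.96 CPM with and 0.59, 0.63 and 0.51 CPM without. All 3 were called without replicate 1 with glutamine, at log2 fold changes of 2.59 for COL3A1 (edgeR adjusted p 2.05e-05, 1.71 and 0.099 with it), 4.12 for TCF21 (2.27e-06, 2.43 and 0.0864 with it) and -2.34 for FOXD1 (6.12e-06, -1.93 and 0.081 with it). Of the 10 markers, 4 were higher and 1 lower without overlap (40.0% and 10.0%, against 17.3% and 16.9% of all tested genes). The part of stromal cells in the difference of CXCL12 was not tested.

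Paraxial mesoderm markers summed to 181 to 300 CPM with glutamine and 176 to 260 CPM without. Of 9 tested, 0 were higher and 3 lower without overlap (0% and 33.3%, against 17.3% and 16.9% of all tested genes). MEOX2 was at 4.535, 15.7 and 14.75 CPM with glutamine and 4.16, 4.26 and 4.32 CPM without. Its log2 fold change was -1.455 (edgeR adjusted p 0.0899), and -1.84 (6.53e-07) without replicate 1 with glutamine. PAX3, a transcription factor of paraxial mesoderm and neural crest, was at 20.8, 115 and 118 CPM with glutamine and 22.4, 12.4 and 13.4 CPM without. Its groups overlapped through replicate 1 with glutamine, and its log2 fold change of -2.40 had an edgeR adjusted p of 0.0786. Without that library PAX3 fell by 2.85 (edgeR adjusted p 5.24e-06). UNCX and FOXC2 went the other way with overlap, at log2 fold changes of 0.72 and 0.42 (edgeR adjusted p 0.122 and 0.169). Without replicate 1 with glutamine these were 0.64 and 0.58 (edgeR adjusted p 0.0581 and 0.0112).

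Over the 6 libraries, the 5 protein-coding genes most like CXCR4 by Pearson's r of log2 CPM, out of 14103 candidates averaging 50 counts or more in 1 group, were BOLA3 (0.9994), CAVIN1 (0.9952), SENP3 (0.9944), NPPB (0.9934) and CBFB (0.9889). Likeness of this kind is given by the 2 groups and 6 points, and 136 genes had an r of at least 0.95. CAVIN1, a coat protein of caveolae, was at 4.14, 5.52 and 5.49 CPM with glutamine and 11.4, 18.6 and 16.6 CPM without. NPPB, which encodes B-type natriuretic peptide, was at 2.00, 2.74 and 2.95 CPM with and 6.84, 12.6 and 11.2 CPM without. Both, like CXCR4, were lowest in replicate 1 with glutamine. CXCL12 and ACKR3 ranked 1227 and 3805 in this list, at r of 0.826 and 0.617. They were closer to each other, at r of 0.906.

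**Figure D5:**
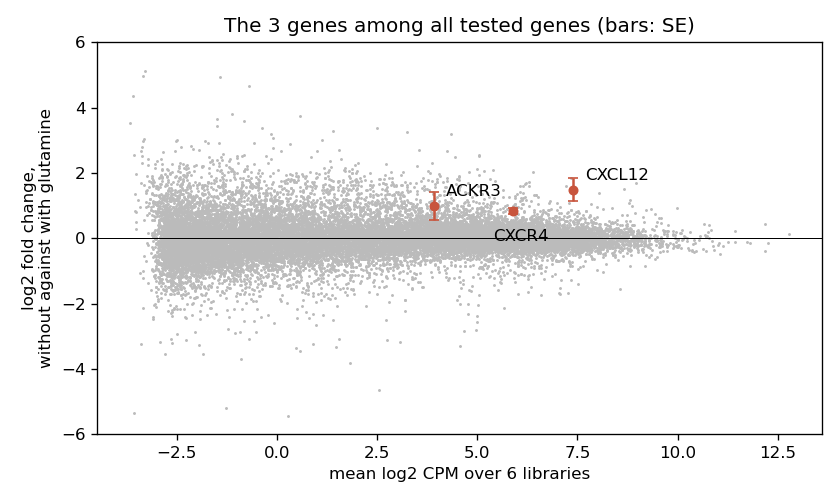
Each grey point is 1 of 22613 tested genes, by mean log2 CPM and by log2 fold change without against with glutamine; red points with SE bars are the 3 genes. CXCL12 lies at a log2 fold change of 1.49 and ACKR3 at 0.99, and CXCR4, at 0.84, has the shortest bar.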

How the data were processed

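Raw counts by Ensembl gene ID and normalized counts, the latter treated as a signal, were deposited by the authors, and the raw count divided by the deposited value is 1 constant per library (0.977 to 1.08). The submitters' processing notes name cutadapt, Trim Galore, FastQC, STAR 2.5.2b, DESeq2 and GRCh38. The counting program, annotation release, strand setting and treatment of multiply aligned reads are not given in the sources used here. Per the labels, a stranded mRNA kit was used and reads were 50 bp, from 1 end.

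Of the gene IDs, 56531 matched GENCODE 29. The quasi-likelihood F test of edgeR 4.0.16, under R 4.3.3, was run on the counts (legacy = FALSE, robust = FALSE) after filterByExpr and TMM scaling, with Benjamini-Hochberg adjustment over 22613 genes and a threshold of 0.05. Each standard error is the size of the log2 fold change over the root of its F statistic. CPM used the TMM-scaled library size, and for correlations a prior count of 2 was added before taking log2. Levels per kilobase used the union of a gene's exons. DESeq2 1.42.0 and limma 3.58.1 (voom) were alternatives. On simulated counts for all 6 libraries, over 22613 genes with 200 changed, 61% of changes of 1 and 95% of changes of 2 on the log2 scale were recovered, with 9 false calls. Without replicate 1 with glutamine, over 23164 genes, the shares were 89% and 100% with 13 false calls. Genes were simulated independently, and no library was made to stand apart as replicate 1 with glutamine did. These shares therefore do not measure how many real changes the test could recover in these libraries.

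The 3 genes and the lists were chosen with earlier results of these data known. Genes named from a list are the up to 3 members with the largest absolute log2 fold change among those averaging 50 counts or more in 1 group whose groups stayed apart. Those named from the likeness search are the 5 genes with the highest r. Other genes (CCR10, CCL2, MIF, PDYN, GNAI2, GNAI3, GPC3, NRF1, HIF1A, EPAS1, DTX3L, CXCL10, PAX3, UNCX, FOXC2, FOXA2, SOX17, CER1, PECAM1, CDH5, PDGFRA, PDGFRB, WT1, SALL1 and SIX2) were named after their values were seen.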

Additional observations from a re-analysis of the deposited data

How the results depend on the processing

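For CXCR4 the log2 fold change stayed between 0.78 and 0.91 under 15 alternatives. The CXCL12 value of 1.49 kept its direction and became called under DESeq2 (1.499), at the threshold of 0.1 (1.49), which was chosen after seeing the data, and without replicate 1 with glutamine. With 1 library left out in turn it ran from 1.233 to 1.87, and ACKR3 ran from 0.7003 to 1.771, where the highest value, without the same library, was the 1 called. Against 1 gene called over the whole table, 0 were called under upper quartile scaling, library size only, the legacy setting, limma-voom and the replicate block, 2 with no filter, 3041 with DESeq2, 3285 at the threshold of 0.1 and 0 to 9573 with 1 library left out, the highest without replicate 1 with glutamine. Same-numbered samples did not deviate together (correlations of -0.021, 8.8e-05 and 0.028). With 3 libraries per group, and 1 of them standing apart, this cannot settle whether the samples were paired. With the replicate block CXCL12 was at 1.51 (edgeR adjusted p 0.137) and ACKR3 at 1.21 (0.163). With the longest transcript, levels per kilobase with and without glutamine were 23.5 and 42.2 for CXCR4 and 29.8 and 83.8 for CXCL12. Upper quartile scaling moved the medians of the G protein list to -0.028, across 0, and of the migration effectors to -0.119; a mean of 10 counts moved other chemokine receptors to -0.858. With 1 library left out, medians ran from -0.70 to -0.381 for other chemokine receptors, -0.402 to -0.138 for other chemokines, -0.0072 to 0.085 for the G protein list and -0.141 to -0.036 for migration effectors. The median over all genes reached at most -0.043 under any scaling. Apart from the library left out, the cause was not tested. Low counts limit the other chemokines and their receptors.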

Other observations

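The genes most like CXCL12 and ACKR3 over the 6 libraries were looked up after their values were seen, with the same candidates and measure as for CXCR4. Closest to CXCL12 were ANGPTL1 (r 0.9992), a secreted angiopoietin-like protein, and RAP1B (0.9985), a small GTPase. ANGPTL1 was at 3.46, 1.68 and 1.68 CPM with glutamine and at 4.27, 7.96 and 10.3 CPM without, so it shares with CXCL12 a wide spread among the libraries without glutamine. Closest to ACKR3 were TRIM26 and IGFBP3 (both 0.9989). IGFBP3, which binds insulin-like growth factors, was at 145, 17.2 and 15.7 CPM with glutamine and at 142, 170 and 232 CPM without. DLK1, an imprinted gene of the Notch ligand family (0.9985), was at 114, 16.7 and 14.99 CPM with and 126, 143 and 172 CPM without. In both, replicate 1 with glutamine lay with the libraries without it, as for ACKR3. These likenesses rest on 6 libraries and carry no test.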
